A study of Mus musculus with 11 samples.

Results

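Cfd, Prtn3 and Elane are serine protease genes that lie side by side on mouse chromosome 10. They were examined with Mpo and Ctsg, unlinked genes for proteins stored in the same neutrophil granules as the Prtn3 and Elane products, in RNA from the inguinal mammary gland. The 5 genes, of 22196 in the tables, were chosen by name, with their difference between the genotypes already known. That difference is therefore given as a description with its standard error (SE), and no p-value is given for it. The study compared 6 libraries titled Knockout, from mice of genotype Tsc1-fl/fl; Adipoq-Cre-Tg/+, with 5 titled Wild-Type, of genotype Tsc1-fl/fl; Adipoq-Cre-+/+. Both groups carry floxed Tsc1 alleles, a gene whose product restrains the growth kinase complex mTORC1, and both received normal chow. Glands were collected 16 days after delivery, and the age label reads PND16.5. The Cre transgene is driven by the adipocyte gene Adipoq, which is active in adipocytes of all fat depots and not only those of the mammary gland.

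Complement factor D, the product of Cfd, is also known as adipsin. It cleaves factor B bound to C3b and so starts the amplification loop of the alternative complement pathway, and in mice it is secreted in large amounts by adipocytes. Proteinase 3 (Prtn3), neutrophil elastase (Elane) and cathepsin G (Ctsg) are stored in the azurophil granules of neutrophils with the peroxidase Mpo. Their transcripts are made mainly by granulocyte precursors in bone marrow and are scarce in circulating neutrophils.

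In the GRCm38 build, all 3 clustered genes are on the plus strand. Prtn3 (ENSMUSG00000057729) spans chr10:79874476-79883174, Elane (ENSMUSG00000020125) chr10:79886247-79888215 and Cfd (ENSMUSG00000061780) chr10:79890853-79892655. The gap from Prtn3 to Elane is 3072 bases and that from Elane to Cfd 2637 bases, so the run covers 18180 bases. Mpo (ENSMUSG00000009350) is at chr11:87793581-87804413 and Ctsg (ENSMUSG00000040314) at chr14:56099881-56102574 on the minus strand. Over aligned coding bases, Prtn3 was 66.2% identical to Elane and 63.6% to Cfd, and Cfd was 59.2% identical to Elane. This similarity left no ambiguous stretch: of the words of 31 bases in the coding sequences, 0 of 777 in Cfd, 0 of 747 in Prtn3, 0 of 768 in Elane and 0 of 756 in Ctsg occurred in another gene. In Mpo, 399 of 2133 words were shared with Gm11505, which overlaps it on the opposite strand. Prtn3 overlaps Plppr3 on the opposite strand, at the first exon of a noncoding Prtn3 transcript and outside its coding exons.

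The sequences just before the annotated starts are shown because the 3 genes differed widely in level and could be compared for shared letters. They come from the RefSeq promoter table for GRCm38.p6, all on the plus strand, and end at the base before the GENCODE start: chr10:79879417-79879613 for Prtn3 (its coding transcript), chr10:79886062-79886246 for Elane and chr10:79890603-79890852 for Cfd. Capitals mark matches to GAGGAAGT and, on the opposite strand in Elane, to the CCAAT box.
Prtn3: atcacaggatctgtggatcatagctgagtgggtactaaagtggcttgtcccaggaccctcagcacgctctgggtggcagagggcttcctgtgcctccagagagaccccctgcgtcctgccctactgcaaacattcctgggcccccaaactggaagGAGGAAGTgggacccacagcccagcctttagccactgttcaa
Elane: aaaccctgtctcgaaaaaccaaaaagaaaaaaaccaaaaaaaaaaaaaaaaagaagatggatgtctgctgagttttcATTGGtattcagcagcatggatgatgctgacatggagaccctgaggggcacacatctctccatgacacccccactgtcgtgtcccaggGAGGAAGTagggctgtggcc
Cfd: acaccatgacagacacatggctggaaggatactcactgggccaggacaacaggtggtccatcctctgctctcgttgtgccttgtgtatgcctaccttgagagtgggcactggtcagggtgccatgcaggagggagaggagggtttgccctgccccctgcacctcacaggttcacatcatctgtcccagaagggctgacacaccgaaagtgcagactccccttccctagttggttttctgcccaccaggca
The 6 motifs were chosen after the sequences had been read and were searched on both strands in the 250 bases before each RefSeq start, and no match overlapped another. The ETS-type letters GAGGAAGT began 95 bases before the RefSeq start of Prtn3, 85 before that of Elane and 224 before that of Mpo, and were not found in Cfd or Ctsg. They occurred in 2.44% of 32851 promoters. The MYB-type letters AACGG (14.5% of promoters) and the TATA-like letters TATAAG (6.65%) were found in Prtn3 and Elane and not in the other 3 genes, with matches that begin 55 and 32 bases before the RefSeq start in Prtn3 and 50 and 31 before it in Elane. Of these only the first bases of the AACGG match in Prtn3 are within the stretch shown. Of the other letters, CCAAT (33.8%) was found in Elane, TATAAA (12.4%) in Ctsg and the C/EBP-type TTNNGNAAT (10.2%) in none of the 5.

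Libraries held 25817975 to 37894237 estimated reads, and casein and other milk protein markers made up 340053 to 593422 CPM (reads scaled to a common library total), so the libraries carried the transcripts of a lactating gland. Tsc1 itself did not pass the test: Knockout averaged 10.1 ± 1.33 CPM (SD, n = 6) against 10.7 ± 1.11 (SD, n = 5) for Wild-Type, with a log2 difference of -0.09 ± 0.11 (SE, edgeR adjusted p = 0.772). Whole-gland RNA does not separate a change in adipocytes from the Tsc1 RNA of other cells. In bulk samples, fewer cells of a type and less RNA per cell cannot be told apart. The labels do not say that the libraries came from separate animals, so spread between them may be partly technical. Of 12716 genes tested with edgeR's quasi-likelihood test, 7 had an adjusted p under 0.05 (0.055%), and 1576 had an unadjusted p under 0.05 (12.4%). Over all genes tested, 48.3% were higher in Knockout.

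Per unit of transcript length, the 5 genes stood far apart. Mean TPM, which divides reads by transcript length and scales every library to 1 total, over the 11 libraries was 537 for Cfd, 0.939 for Prtn3, 0.0652 for Elane and 0.0208 for Mpo, and Ctsg was at 0. Cfd ranked 56th and Prtn3 9595th of the 17503 genes with any TPM. Prtn3 TPM exceeded Elane TPM in 11 of 11 libraries, and Cfd TPM exceeded Prtn3 TPM in 11 of 11, by 238 to 2736 times. Elane exceeded Mpo in 10 of 11, the exception being Knockout 2, but both rested on a handful of reads.

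Cfd was abundant in every gland and higher on average in Knockout. Its CPM in Wild-Type 1 to 5 was 656, 632, 361, 499.6 and 489, from 11485 to 18731 reads. Knockout ran from 625.5 to 1227 with a median of 858, from 18339 to 55265 reads. By CPM the groups overlapped, because Knockout 2 at 625.5 lay below Wild-Type 1 and Wild-Type 2, and the highest library was Knockout 1. By TPM they did not, at 512 to 1161 in Knockout and 206 to 397 in Wild-Type. The share of all genes separated by TPM was not counted. Knockout averaged 905 ± 201.1 CPM (SD, n = 6) against 527 ± 120 (SD, n = 5) for Wild-Type, with a log2 difference of 0.78 ± 0.18 (SE, 1.72-fold). Summed CPM of the 5 milk protein markers was 340053 to 477022 in Knockout and 421989 to 593422 in Wild-Type, and its part in the differences of scarcer genes was not tested. In the authors' deposited table of normalised values, Cfd ran from 19575 to 37672 in Knockout and from 11213 to 20493 in Wild-Type.

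Cfd is quantified as a pair of coding transcripts that differ by 3 bases at the start of exon 2. Exon 2 begins at chromosome 10 position 79891456 in Cfd-201 (780 coding bases) and 79891459 in Cfd-202 (777). The coding bases from position 41 onward are shown because these letters carry the difference, with the extra bases of Cfd-201 in capitals.
Cfd-201: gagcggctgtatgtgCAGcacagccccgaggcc
Cfd-202: gagcggctgtatgtgcacagccccgaggcc
Cfd-201 took 44.5% ± 0.71 of Cfd reads in Knockout (SD, n = 6, range 43.7 to 45.8) and 43.2% ± 0.72 in Wild-Type (SD, n = 5, range 42.5 to 44.4). The ranges overlapped, and Cfd-202 took the larger share in all 11 libraries, at 54.2 to 57.5%.

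Prtn3 was scarce, and its reads were concentrated in Knockout. Knockout 1 to 6 held 123, 17, 63, 41, 86 and 40 reads. Wild-Type 1 to 5 held 13, 4, 4, 5 and 7 reads. By reads and by CPM every Knockout library was above every Wild-Type library, though Knockout 2 came close to Wild-Type 1. By TPM the groups overlapped, with Knockout 2 at 0.501 and Wild-Type 4 at 0.546. In CPM, Wild-Type 1 to 5 were at 0.455, 0.167, 0.126, 0.152 and 0.246, and Knockout ran from 0.580 to 3.16 with a median of 1.66. Knockout averaged 1.82 ± 1.00 CPM (SD, n = 6) against 0.229 ± 0.134 (SD, n = 5) for Wild-Type, with a log2 difference of 2.98 ± 0.49 (SE, 7.87-fold). Because 6 Knockout libraries and only 1 Wild-Type library reached 10 reads, Prtn3 passed the filter on low counts only through the group in which it is high.

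A short coding transcript of Prtn3 (379 coding bases) received reads in 1 Knockout and 2 Wild-Type libraries, and it held all 5 reads of Wild-Type 4. In the authors' deposited table, whose values differ from the read counts, Prtn3 ran from 14.8 to 87.9 in Knockout and from 3.18 to 17.0 in Wild-Type, so there too the groups overlapped: the highest Wild-Type value was that of Wild-Type 4. With effective transcript length as an offset, the log2 difference was 2.49 in place of 2.98.

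Elane, the gene between them, gave 34 reads in all. Knockout 1 to 6 held 8, 1, 4, 6, 1 and 3 reads, and Wild-Type 1 to 5 held 4, 2, 1, 1 and 3. Elane averaged 0.108 ± 0.0659 CPM (SD, n = 6) in Knockout against 0.0781 ± 0.0476 (SD, n = 5) for Wild-Type, with overlapping ranges. With 1 to 8 reads in a library, Elane did not pass the low-count filter and was not tested.

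The granule controls were close to absent. Mpo had 2 reads in Knockout 2 and 2 in Wild-Type 5, and none in the other 9 libraries. Ctsg had 0 reads among 345317038, which allows up to 0.00867 CPM over all libraries (3 counts) and 0.0666 to 0.125 CPM in a single library, for counting error only. Of the 5 genes, 2 passed the low-count filter. For these edgeR called 0 of 2 (background 0.055%) and DESeq2 called 2 of 2 (background 1.09% of 13395 genes). All Knockout libraries lay above all Wild-Type libraries for 1 of the 2 (background 0.786%). The contrast chose the genes, so nothing is read from these counts.

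**Figure D1:**
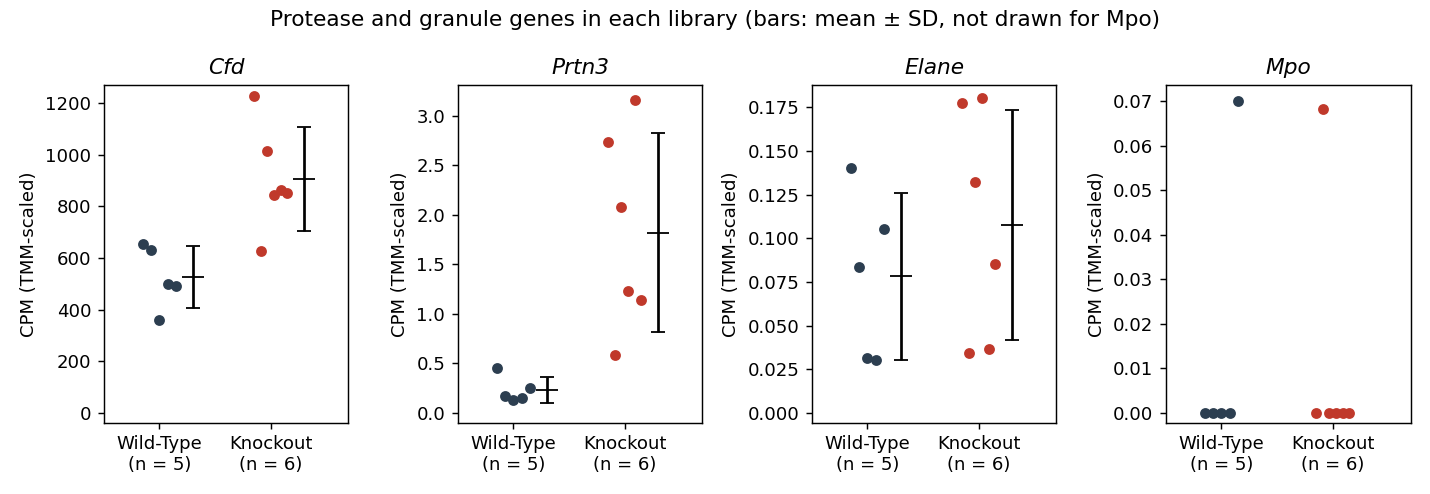
CPM of Cfd, Prtn3, Elane and Mpo by genotype, 1 point per library on separate linear axes, with bars for the mean and SD except for Mpo. Prtn3 in Knockout (0.580 to 3.16) lies above Wild-Type (0.126 to 0.455), whereas Cfd, Elane and Mpo overlap.

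Prtn3 and Cfd levels ran together over the libraries. Pearson's r of log2 CPM was 0.91 and Spearman's rho 0.90 over 11 libraries, a value that contains the genotype difference used to choose the genes and therefore carries no p. Without the 2 libraries farthest from the median in Cfd, Knockout 1 and Wild-Type 3, r was 0.89 over 9. Within Knockout alone r was 0.80 (n = 6, two-sided exact permutation p = 0.0569) and rho 0.77 (exact permutation p = 0.103), from 720 permutations of the only relation tested. Neither p was under 0.05, and Prtn3 passed the low-count filter only through this group. Without Knockout 1 and Knockout 2, the farthest from the Knockout median in Cfd, r fell to 0.32 over 4 libraries. Leaving these out also narrows the range of Cfd, so no relation within Knockout is read from these values. No value is given within Wild-Type, since its 5 libraries were judged too few for a value of their own. The value over 4 Knockout libraries is only a check on that over 6. The 2 levels did not keep a fixed ratio: Prtn3 reads per 1000 Cfd reads ran from 0.927 to 3.66 in Knockout and 0.265 to 0.694 in Wild-Type. On TPM the same ratio overlapped, at 0.977 to 4.20 and 0.366 to 1.40.

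**Figure D2:**
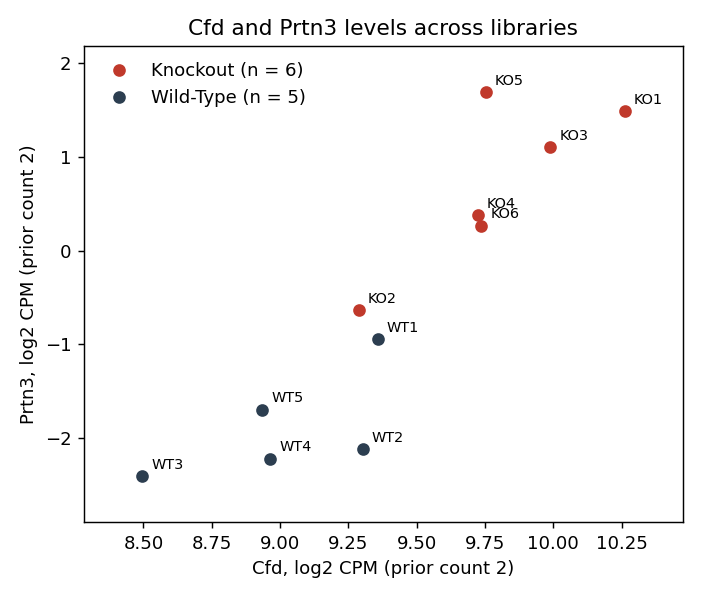
Prtn3 against Cfd, both in log2 CPM with a prior count of 2, 1 labelled point per library. The Wild-Type points lie low in Prtn3, and Knockout 2 is the Knockout library nearest to them.

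Among the 12716 genes tested, those most like Cfd in log2 CPM over the 11 libraries were Cidec (r = 0.96), a lipid droplet protein of adipocytes, Adipoq (0.93), which encodes adiponectin, Slc7a10 (0.92), an amino acid transporter, Dnaja1 (0.92), a chaperone, and Gsn (0.91), the actin-severing gelsolin. Prtn3 was 7th. The most opposed were Acrbp and Habp4, both at -0.93. For Prtn3 the most alike were Ephx2 (0.93), the soluble epoxide hydrolase, Wapl (0.93), a cohesin release factor, Gsn (0.91), Dmrt2 (0.91), a transcription factor, and Adh1 (0.91), an alcohol dehydrogenase. Cfd was 7th here too. Lztfl1 and Acrbp were most opposed, at -0.95 for each. These values come from the same 11 libraries and contain the genotype difference. Gsn was in both lists of 5, while Adipoq ranked 80th and Cidec 53rd for Prtn3. Not all adipocyte markers were alike: Plin1, the lipid droplet coat gene perilipin, had r = 0.29 with Cfd and 0.08 with Prtn3, and Lep had -0.25 and -0.44.

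No tested gene beside the cluster passed the test. Of 43 annotated genes within 250 kb, 34 were in the tables, 33 had reads and 28 were tested. edgeR called 0 of 28 (0.055% of all genes tested), 2 had an unadjusted p under 0.05 (12.4%), and DESeq2 called 0 (1.09%). The median log2 difference was -0.09, against -0.01 over all genes tested, with 9 higher and 19 lower. Just before Prtn3, Misp, an actin-bundling protein gene, was at -0.03 ± 0.28 (SE, with a sign that changed with the length offset) and the splicing regulator Ptbp1 at 0.08 ± 0.07 (SE). Just after Cfd, the Mediator subunit gene Med16 was at 0.05 ± 0.11 (SE) and R3hdm4 at -0.10 ± 0.10 (SE), and Gm26602 had only 15 reads.

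The exception by position was Plppr3, a phospholipid phosphatase-related membrane protein gene whose 5′ end overlaps Prtn3. Its CPM was 1.39 to 2.35 in Knockout and 0.729 to 1.29 in Wild-Type, so every Knockout library was above every Wild-Type one. Of all genes tested, 0.786% were separated in this way. The Plppr3 log2 difference of 0.72 ± 0.21 (SE) did not pass the test (edgeR adjusted p = 0.269). With transcript length as an offset it was 1.98 ± 0.43 (SE, edgeR adjusted p = 0.183). The genes next in order of p were Arhgap45 at -1.46 ± 0.54 (SE, edgeR adjusted p = 0.341) and Tmem259 at -0.14 ± 0.07 (SE, edgeR adjusted p = 0.416). B cell markers ran from 0.661 to 12.8 CPM in Knockout and 1.72 to 68.5 in Wild-Type, and their part in the Arhgap45 value was not tested. Without Wild-Type 5, which had the highest B cell sum, the Arhgap45 value was -0.90.

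**Figure D3:**
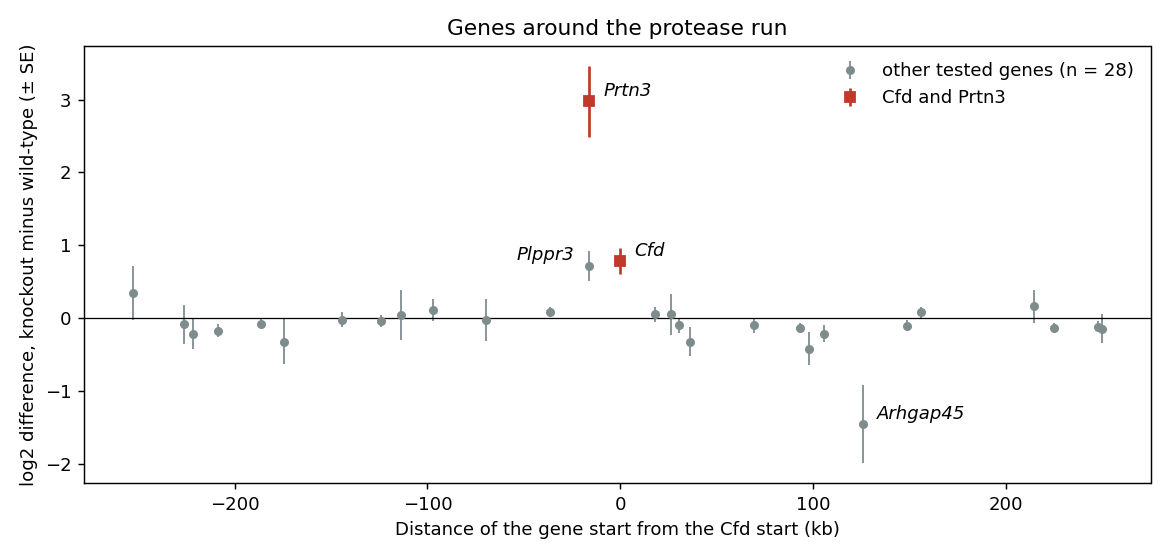
Log2 difference, Knockout minus Wild-Type, with SE for the tested genes around the cluster, against distance from the Cfd start in kb. Prtn3 (2.98) and Cfd (0.78) lie above the 28 other genes in this fit, of which Plppr3 (0.72) comes nearest, but with transcript length as an offset Plppr3 (1.98) lies above Cfd (0.78).

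Cfd is 1 enzyme of the alternative complement pathway, and no other listed gene of the pathway passed the test. Of 18 genes listed, 16 were tested. edgeR called 0 (0.055% of all genes tested), 1 had an unadjusted p under 0.05 (12.4%) and DESeq2 called 0 (1.09%). Of the 16, 5 were higher and 11 lower, with a median of -0.09. Hc, which encodes complement C5, was at 0.69 ± 0.24 (SE, edgeR adjusted p = 0.310), the integrin chain gene Itgb2 at -0.68 ± 0.33 (SE, edgeR adjusted p = 0.426) and properdin, Cfp, which stabilises the pathway's convertase, at -0.48 ± 0.25 (SE, edgeR adjusted p = 0.466). Without Wild-Type 5 the Itgb2 value was -0.32, and without Wild-Type 2 the Cfp value was -0.30.

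Protease inhibitor genes were examined next, in a list that holds inhibitors of the neutrophil proteases and of other serine proteases. Of 20 listed, 13 were tested. edgeR called 0 (0.055% of all genes tested), 3 had an unadjusted p under 0.05 (12.4%) and DESeq2 called 0 of the 13 (1.09%). Of the 13, 3 were higher and 10 lower, with a median of -0.07. DESeq2 also called 1 listed gene that was below the edgeR filter, Serpina1e. Serpinb1a, an inhibitor of neutrophil elastase, proteinase 3 and cathepsin G, was at 0.210 to 1.09 CPM in Knockout and 0.314 to 4.11 in Wild-Type, a log2 difference of -1.78 ± 0.66 (SE, edgeR adjusted p = 0.340). Serpinb6b was at -0.74 ± 0.31 (SE, edgeR adjusted p = 0.370) and Serpina3g at -0.61 ± 0.27 (SE, edgeR adjusted p = 0.396). Without Wild-Type 5 the Serpinb6b value was -0.41. Serpinb1a was highest in Wild-Type 5, 2 and 4 (4.11, 3.34 and 1.40 CPM), the libraries with the highest summed B cell markers (68.5, 50.9 and 14.97 CPM), and the part of these cells in its value was not tested. These serpins have close paralogs, and reads could have been split between copies.

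No listed neutrophil gene passed the test. Of 31 neutrophil genes, which include Serpinb1a, 16 were tested. edgeR called 0 (0.055% of all genes tested), 4 had an unadjusted p under 0.05 (12.4%) and DESeq2 called 0 (1.09%). Of the 16, 6 were higher and 10 lower, with a median of -0.21. Besides Serpinb1a, the smallest p-values were those of Ltf, the milk and granule protein lactoferrin, at 0.73 ± 0.30 (SE, edgeR adjusted p = 0.360) and S100a8, a calprotectin subunit, at 1.09 ± 0.44 (SE, edgeR adjusted p = 0.360). Without Knockout 1, which held 6.57 CPM of S100a8, its value was 0.64. Summed over 8 markers, neutrophil CPM was 2.32 to 7.93 in Knockout and 2.34 to 4.97 in Wild-Type. Over all libraries, S100a8 had 808 reads, Csf3r 424 and S100a9 102, whereas Cxcr2 had 22, Retnlg 9, Camp 4, Ngp 3 and Ly6g 1. Csf3r, the G-CSF receptor gene, was at 0.694 to 1.32 CPM in Knockout and 0.729 to 1.75 in Wild-Type. Marrow precursor markers other than the 4 granule genes studied, Ms4a3 (0 reads), Prss57, Gfi1 and Cebpe, summed to 27 reads in Knockout and 26 in Wild-Type. Mast cell markers were at 1.25 to 2.97 CPM in Knockout and 0.848 to 4.80 in Wild-Type.

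Adipocyte genes had the highest median of the 5 lists, and none passed the edgeR test. Of 25 listed, 23 were tested, edgeR called 0, 7 had an unadjusted p under 0.05 (12.4% of all genes tested did) and DESeq2 called 3 (1.09% of all genes), with 15 higher, 8 lower and a median of 0.12. The smallest p-values belonged to Plin4, a lipid droplet protein gene, at 1.33 ± 0.36 (SE, edgeR adjusted p = 0.250), the fatty acid carrier gene Fabp4 at 0.35 ± 0.10 (SE, edgeR adjusted p = 0.255) and Adipoq at 0.40 ± 0.11 (SE, edgeR adjusted p = 0.263). These were the 3 that DESeq2 called, at adjusted p of 0.0250, 0.0399 and 0.0498. Summed CPM of the 6 adipocyte markers Adipoq, Plin1, Cidec, Lep, Retn and Fabp4 was 303.1 to 407 in Knockout and 250.04 to 302.5 in Wild-Type. The groups nearly touched, at Knockout 5 (303.1) and Wild-Type 4 (302.5), but did not overlap. Of single genes tested, 0.786% had every Knockout library above every Wild-Type one. Fabp4 made up most of the sum, at 196 to 275 CPM in Knockout and 163 to 207 in Wild-Type. Each of the 6 overlapped between the groups on its own, and Lep, which encodes leptin, was at 0.132 to 1.29 CPM in Knockout and 0.534 to 2.13 in Wild-Type. The sum's part in the Cfd and Prtn3 values was not tested. Per Adipoq TPM, Knockout had a Cfd TPM of 12.9 ± 1.94 (SD, n = 6) against 9.89 ± 1.06 (SD, n = 5) for Wild-Type, with ranges of 9.44 to 14.7 and 8.55 to 11.2 that overlapped.

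**Figure D4:**
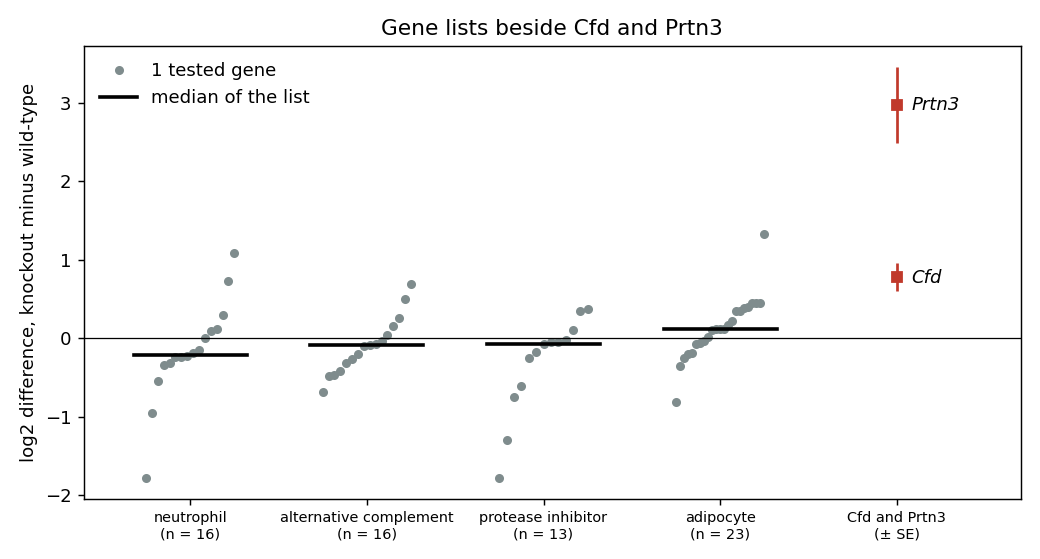
Log2 difference, Knockout minus Wild-Type, of each tested gene in the neutrophil, alternative complement, protease inhibitor and adipocyte lists (1 grey point per gene, black lines for medians), with Cfd and Prtn3 as squares with SE. No gene in these lists passed the edgeR threshold, and the list medians lie between -0.21 and 0.12.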

How the data were processed

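The 6 Knockout and 5 Wild-Type RNA-seq libraries of inguinal mammary gland were grouped by title. Per the labels' protocols, total RNA was made into directional Illumina libraries. Per the submitters' processing notes, Salmon 1.3.0, DESeq2 1.28.1 and build GRCm38.p6 were used, with no roles given. Per the file headers, the deposited transcript tables give length, effective length, TPM and NumReads, which is an estimated count per transcript. The deposited gene table holds normalised values (signal) and is named as DESeq2-normalised counts, with no further detail on the scaling in the sources used here. Whether counting used strand is not given either.

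Transcripts were joined to genes with GENCODE M21 (57452 of 58204 matched, 57008 with the same version). The unmatched transcripts held 0.195 to 0.265% of reads. These values were added up within each gene and then rounded to whole numbers. For the 5 genes the listed lengths were close to coding lengths, so untranslated regions were mostly not counted. Of 22196 genes, 17497 had a read and 12716 passed filterByExpr. edgeR 4.0.16 (R 4.3.3, limma 3.58.1) with TMM scaling, a robust quasi-likelihood test and Benjamini-Hochberg adjustment at 0.05 was the test, and CPM uses the TMM-scaled totals. Differences are Knockout minus Wild-Type. Alternatives were DESeq2 1.42.0, RLE scaling, no filter, a transcript length offset, a replicate block and leaving out each of the 11 libraries. Depth was 25817975 to 37894237 reads, and the 25 within-genotype library pairs all differed beyond counting noise (chi-square per degree of freedom at least 21.9).

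The genes and lists were chosen with earlier results of these data known. Named genes are the 5 members, Tsc1, called genes and the 3 smallest p-values in each list, and the 3 measured neighbours on each side. For Cfd and Prtn3 they are also the 5 most and 2 least correlated genes, with Gm and Rik names passed over. On simulated counts (12611 genes) 73.2% of 97 genes changed by 1 log2 unit and 97% of 100 changed by 2 were recovered, with 6 false calls. These rates describe the simulated counts only. Whether they hold for the real libraries was not tested, and there edgeR did not call Prtn3, at a log2 difference of 2.98. A list without called genes is therefore not read as showing that its genes did not change.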

Additional observations from a re-analysis of the deposited data

Results flagged for a closer look

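Knockout 1, the library with the most Cfd and Prtn3 reads, stood apart from the other Knockout libraries in summed markers of other cell types. Its skeletal muscle markers summed to 1986 CPM, against 2.10 to 148 in the other 5. Its B cell markers summed to 12.8 CPM, against 0.661 to 2.13. Of 32 sets of values examined for a library far from its group, these 2 stood out, and chance gives about 1.6. Without Knockout 1 the log2 difference was 0.68 for Cfd and 2.82 for Prtn3, against 0.78 and 2.98 with it.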

How the results depend on the processing

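Cfd stayed higher in Knockout under all 16 alternatives (log2 difference 0.67 to 0.87), as did Prtn3 (2.49 to 3.38), with Prtn3 lowest under the transcript length offset. Elane, Mpo and Ctsg were below the filter and have no such value. Of 18 other genes named from the lists and the nearest neighbours, all but 1 kept their direction, as did Tsc1. The exception was Misp, whose log2 difference of -0.03 became 0.35 under the transcript length offset, 0.10 with the replicate block and -0.18 to 0.20 with 1 library left out (positive without Knockout 1, 3 or 6 or Wild-Type 2), against an SE of 0.28. The number of genes called was 7 with edgeR, 146 with DESeq2, and 0 to 28 when 1 library was left out: 2 without Knockout 1, 28 without Knockout 2, 0 without Knockout 3 or Knockout 6, 13 without Wild-Type 1 or Wild-Type 5, 2 without Wild-Type 3 and 14 without Wild-Type 4. The cause was not tested. DESeq2 called 3 adipocyte genes where edgeR called 0, and 1 protease inhibitor gene, Serpina1e, that the edgeR filter had left out. Plin4, Fabp4 and Adipoq passed only with DESeq2. The replicate block left 0 genes called, with 4 residual degrees of freedom. Libraries of the same number showed little likeness: 1 of 5 pairs had deviations correlated above 0.1 (range -0.22 to 0.19). Among the Knockout libraries, 1 of 5 correlated best with its own number. These values do not settle whether the numbers pair the libraries, and the main test treats them as unpaired. The correlation of Cfd with Prtn3 was 0.87 on log2(TPM + 1) and 0.89 to 0.94 with 1 library left out. Few reads limit Elane, Mpo and Ctsg.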

Other observations

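Serpina1e, 1 of several near-identical alpha-1-antitrypsin genes and an inhibitor-list gene below the edgeR filter, had 1 read in Knockout and 63 in 4 of 5 Wild-Type libraries. DESeq2 gave it a log2 difference of -5.80 (adjusted p = 0.00296), and edgeR without the filter gave an adjusted p of 0.0874. Reads may be split among its copies, so the value is uncertain, and it was named after its values were seen.

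In the authors' deposited table, Mpo stood at 8.31 in Knockout 2 and 0.546 in Wild-Type 5, although both libraries held 2 reads. The reads of Knockout 2 were assigned to the transcript Mpo-205 and those of Wild-Type 5 to Mpo-201.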
